A study of Mus musculus with 14 samples.

Results

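The transcripts described here are those of 47 genes of the intestinal epithelium, read in 14 RNA-seq libraries of regulatory T cells (Tregs) that had been sorted from the gut of mice. The genes were selected by symbol, and several of them were picked because of their values in these libraries. All 47 were found by their Ensembl IDs in both count tables, out of 55487 IDs in the table of the inducible line and 53801 in the table of the constitutive line. They fall into 14 structural genes, 15 genes of small-intestinal absorptive cells, 3 absorptive genes with no assigned segment, 3 genes of colonocytes, 3 genes of epithelial defence, 7 genes of secretory cells and 2 genes of crypt stem cells. Because the selection used these values, the differences of the 47 genes are given as a description without a test. Tests are given for 62 other epithelial genes, called companion genes here, which were listed by cell class with earlier results of the series known.

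PP Tregs from Peyer's patches (PP) were sorted as CD4+Foxp3(YFP)+CD62L- cells from male mice without treatment. There were 2 libraries of JunB F/+ Foxp3YFPcre (HET) and 2 of JunB F/F Foxp3YFPcre (KO) mice. In the inducible line, JunB F/+ (iHET) and JunB F/F (iKO) mice with Foxp3ERT2cre and Rosa26-tdTomato gave 3 libraries each of colonic Tregs, sorted as TCRb+CD4+Foxp3(EGFP)+tdTomato+ cells, and 2 each of PP Tregs by the same gate with CD25- added. These mice were gavaged 3 times with 8 mg of tamoxifen, on days 0, 1 and 3, and cells were taken on day 7, with replicate 1 from a male and replicates 2 and 3 from females. Every group, controls included, carried at least 1 floxed Junb allele and a Cre recombinase driven from Foxp3, and the study's methods describe deletion of Junb in the germline of the constitutive line. The methods strip the epithelium from colon with EDTA before digestion, and state no such step for PP.

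The epithelium of the gut is a single layer of cells that is renewed from crypt stem cells marked by Lgr5. Absorptive cells of the small intestine carry brush border enzymes and transporters and package dietary fat, colonocytes move water and ions, goblet cells secrete mucins, Paneth cells secrete lysozyme, and enteroendocrine cells release hormones. Several keratins, the adhesion molecule Epcam, claudins and villin are shared by most of these cells. None of these genes defines a T cell.

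The promoters of 3 small-intestinal absorptive genes are shown because they belong to the class whose levels separated the genotypes in both PP experiments. Sis encodes sucrase-isomaltase, Fabp2 encodes the intestinal fatty acid binding protein, and Fbp2, which encodes a fructose bisphosphatase, is shown for its match to the motif of AP-1, the family of JunB. The sequences are those of RefSeq on GRCm38.p6, run 5′ to 3′ on the strand of the gene, and span 250 bases before to 50 bases after the start of transcription. Capitals mark matches on either strand to any of 5 motifs. That of the intestinal CDX factors was searched as TTTATNG. For the factor HNF1, which binds promoters of liver and gut genes, a part of its site was used, written GTTAAT. The nuclear receptor HNF4 was searched by the letters CAAAGTC, and the zinc finger factors of the GATA family by the letters AGATAA. The motif taken for AP-1 dimers, in which JunB is 1 partner, reads TGANTCA.
Sis (chr3:72967814-72968113, minus strand): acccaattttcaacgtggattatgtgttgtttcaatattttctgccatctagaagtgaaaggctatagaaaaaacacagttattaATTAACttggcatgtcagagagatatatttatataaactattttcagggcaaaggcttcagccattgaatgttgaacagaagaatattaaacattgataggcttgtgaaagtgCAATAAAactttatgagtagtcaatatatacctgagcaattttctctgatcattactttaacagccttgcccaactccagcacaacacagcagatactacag
Fabp2 (chr3:122894822-122895121, plus strand): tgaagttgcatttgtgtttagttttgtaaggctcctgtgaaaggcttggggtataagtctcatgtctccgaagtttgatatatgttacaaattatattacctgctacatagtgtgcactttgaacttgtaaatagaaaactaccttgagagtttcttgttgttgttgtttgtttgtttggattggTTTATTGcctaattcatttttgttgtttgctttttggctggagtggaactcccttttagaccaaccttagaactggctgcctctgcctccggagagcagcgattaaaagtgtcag
Fbp2 (chr13:62858351-62858650, minus strand): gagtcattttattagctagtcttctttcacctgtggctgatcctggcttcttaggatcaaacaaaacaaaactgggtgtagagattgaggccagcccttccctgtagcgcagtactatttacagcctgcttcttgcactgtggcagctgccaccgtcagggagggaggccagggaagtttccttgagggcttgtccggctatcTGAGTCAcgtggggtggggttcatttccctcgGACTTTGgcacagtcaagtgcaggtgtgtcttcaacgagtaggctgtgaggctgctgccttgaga
The promoter of Sis held a CDX match from position -52 to -46 and an HNF1 match from -165 to -160 relative to the start. That of Fabp2 held a CDX match from -65 to -59, and that of Fbp2 an AP-1 match from -47 to -41 and an HNF4 match from -15 to -9. Promoters were found for 36 of the 47 genes, in 42 windows. CDX matches were in 19% of these windows and in 10.9% of all 32851 promoter windows of the table. The shares were 16.7% and 7.1% for HNF1, 16.7% and 11.2% for GATA, 7.14% and 4.44% for HNF4, and 11.9% and 7.81% for AP-1. Within the windows of the 36 genes, 1 pair of matches to different motifs overlapped. These matches are letters in a window and were not tested.

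Between 26274861 and 35508709 reads were counted per library, and levels are given as CPM, the count scaled to a common library total. A count of 3, taken as the floor, lay between 0.0845 and 0.114 CPM. The sorted type was checked by Foxp3, which lay between 65.1 and 147 CPM in the 14 libraries, and by 7 genes of Tregs and T cells, whose summed level lay between 5964 and 9050 CPM. Against this, the 47 epithelial genes together summed to between 71.4 and 4865 CPM. A lower level of a transcript in a bulk library can mean fewer cells of a type or less RNA per cell, and these cannot be told apart. The tables of the constitutive and the inducible line were sequenced and counted separately, so levels set across them were not tested.

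The sums by class showed 4 patterns. The small-intestinal absorptive genes summed to 159 and 61.3 CPM in PP HET libraries and to 6.80 and 4.24 CPM in PP KO libraries. In CD25- PP Tregs they summed to 346 and 317 CPM in iHET and 33.7 and 87.8 CPM in iKO. In colonic Tregs they summed to 62.5, 79.5 and 33.7 CPM in iHET and to 24.8, 63.3 and 193 CPM in iKO. For this sum the control libraries were above the JunB-deficient ones in both PP experiments, while the colonic groups overlapped. The colonic sum was uneven by gene. Ckmt1 and Maoa averaged 23.9 and 9.58 of 58.6 CPM in iHET and 34.4 and 18.5 of 93.8 CPM in iKO. Apoa1, G6pc, Sis and Slc2a2 were under 1 CPM in every colonic library. The structural genes summed to 208 and 140.5 CPM in PP HET and to 47.7 and 43.5 CPM in PP KO libraries, to between 160 and 377 CPM in CD25- PP libraries, and to between 223 and 2175 CPM in colonic libraries. Colonocyte genes summed to between 225 and 1673 CPM in colonic libraries and to at most 38.7 CPM in any PP library. The crypt stem genes summed to between 9.35 and 15.0 CPM in all 10 libraries of the inducible line and to at most 0.829 CPM in the constitutive line. In the inducible line this sum was nearly all Lgr5, since Olfm4 was at 1.21 CPM or less in every library.

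**Figure D1:**
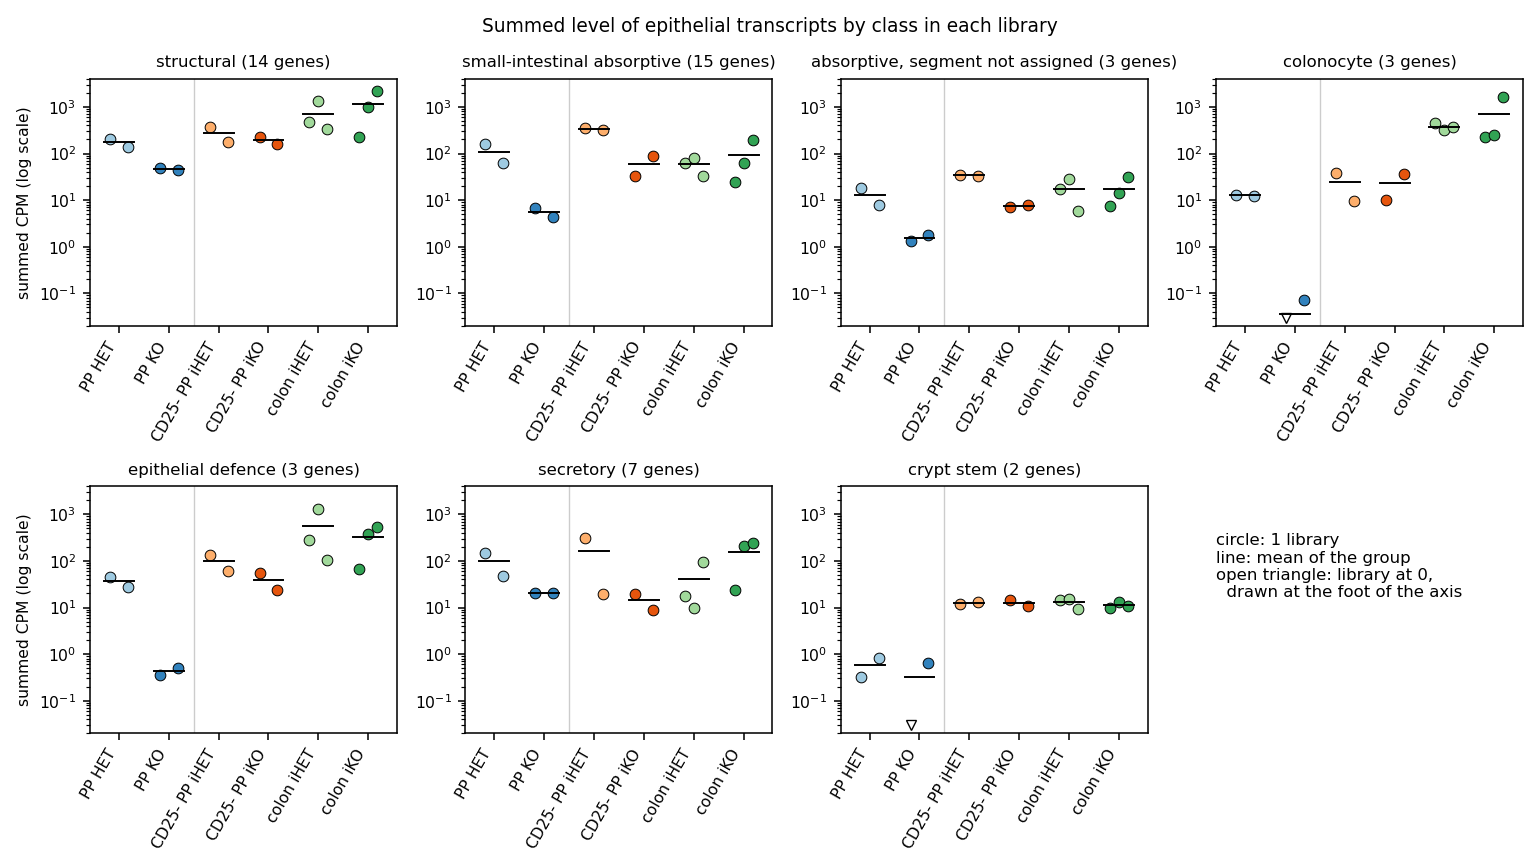
Summed level in CPM (log axis) of the genes of each epithelial class, where each circle is 1 library, each line is the mean of its group and open triangles at the foot are libraries at 0. Small-intestinal absorptive genes are at 61.3 CPM or more in PP HET and at 6.80 CPM or less in PP KO libraries, while the colonic groups overlap in every class.

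The ratio of classes differed between libraries of 1 organ. Small-intestinal absorptive genes stood to structural genes as 0.764 and 0.436 in PP HET, 0.142 and 0.0974 in PP KO, 0.917 and 1.78 in CD25- PP iHET, and 0.148 and 0.549 in CD25- PP iKO libraries. In the 6 colonic libraries this ratio lay between 0.0601 and 0.130. It was lower in both JunB-deficient than in both control libraries of each PP experiment. In PP KO libraries, however, Epcam alone made up 38.0 of 47.7 and 37.1 of 43.5 CPM of the structural sum. The size of the drop in the PP KO ratio thus rests largely on Epcam, also where companion genes are set over structural genes. With the small-intestinal absorptive companion genes in place of the members, the ratio was 0.776 and 0.369 in PP HET and 0.197 and 0.152 in PP KO, but in CD25- PP Tregs 1.58 and 1.75 in iHET overlapped 0.545 and 1.67 in iKO. Secretory genes stood to small-intestinal absorptive genes as 0.878 in CD25- PP iHET replicate 1 and as 0.0621 in replicate 2 of the same group.

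**Figure D2:**
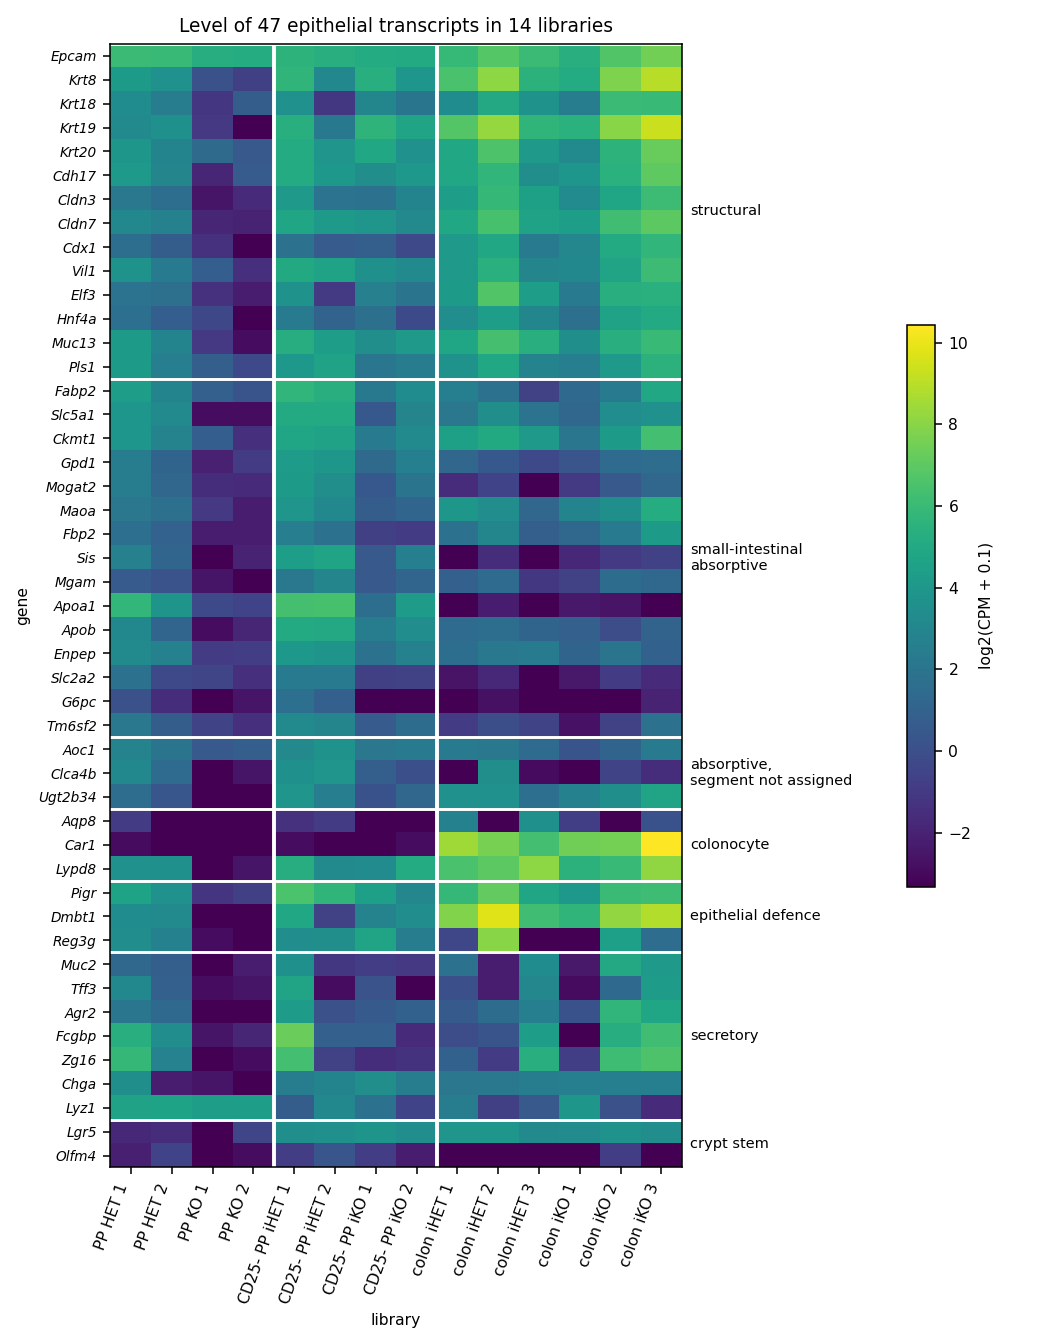
Level of each of the 47 genes (rows, by class) in each of the 14 libraries (columns) as log2(CPM + 0.1). Apoa1 and Sis are dark in colonic libraries, Car1 is dark in PP libraries, and Lgr5 is even across the 10 libraries of the inducible line.

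Among the structural genes, the adhesion molecule Epcam (ENSMUSG00000045394.9, GRCm38 chromosome 17 from 87635979 to 87651129) was the most even. It was at 66.0 and 61.3 CPM in PP HET and at 38.0 and 37.1 CPM in PP KO libraries. Among CD25- PP Tregs it was at 48.4 and 40.8 CPM in iHET and at 34.7 and 34.6 CPM in iKO, and in colonic Tregs at 60.2, 114 and 67.5 CPM in iHET and 41.0, 103 and 179 CPM in iKO. Epcam was lower in both JunB-deficient libraries of both PP experiments, by -0.73 (standard error 0.10) and -0.34 (standard error 0.17) on the log2 scale, and the colonic groups overlapped. Per kb of exon it was the highest structural gene in PP KO libraries, at 17.1 CPM per kb, followed by Krt20 at 1.03 CPM per kb.

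The keratins Krt8 and Krt19 form the intermediate filaments of simple epithelia. Krt8 was at 17.8 and 12.5 CPM in PP HET and at 0.961 and 0.512 CPM in PP KO libraries, or -4.27 as log2 fold change (standard error 0.35). In CD25- PP Tregs it was at 51.3 and 8.38 CPM in iHET and at 39.3 and 15 CPM in iKO, and in colonic Tregs at 90.2, 271 and 46.1 CPM in iHET and 35.8, 217 and 491 CPM in iKO. The genotypes overlapped in both organs of the inducible line. Krt19 was at 9.21 and 11.9 CPM in PP HET, at 0.392 and 0 CPM in PP KO, at 40.7 and 4.57 CPM in CD25- PP iHET, at 49.1 and 25.99 CPM in CD25- PP iKO, at 110.0, 302 and 51.1 CPM in colonic iHET and at 45.0, 256 and 655.5 CPM in colonic iKO libraries. The counts of both keratins kept a ratio (Krt19 over Krt8) between 1.11 and 1.34 in the 6 colonic libraries.

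Villin (Vil1), which bundles actin in the brush border, was at 12.7 and 5.05 CPM in PP HET and at 1.60 and 0.256 CPM in PP KO libraries. It was at 32.3 and 24.2 CPM in CD25- PP iHET and at 11.8 and 9.25 CPM in CD25- PP iKO libraries, so the genotypes did not overlap in either PP experiment. In colonic Tregs it was at 16.4, 42.2 and 7.56 CPM in iHET and at 8.55, 26.2 and 69.8 CPM in iKO, and overlapped. The other 10 structural genes (Krt18, Krt20, the cadherin Cdh17, the claudins Cldn3 and Cldn7, the transcription factors Cdx1, Elf3 and Hnf4a, the mucin Muc13 and the actin bundler Pls1) were below both PP HET libraries in both PP KO libraries, with log2 fold changes between -2.47 for Krt20 and -5.64 for Muc13. In the colon, 1 library stood highest for most of the class, since iKO replicate 3 held the highest level of 11 and iKO replicate 1 the lowest level of 11 of the 14 structural genes. Among CD25- PP Tregs, iHET replicate 1 was highest for 12 of the 14.

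The small-intestinal absorptive genes take up sugar and fat and assemble lipoproteins. Fabp2 (ENSMUSG00000023057.5, chromosome 3 from 122895072 to 122899506) was at 20.9 and 7.21 CPM in PP HET, at 1.78 and 1.10 CPM in PP KO, at 53.0 and 41.7 CPM in CD25- PP iHET and at 4.57 and 10.4 CPM in CD25- PP iKO libraries. In colonic Tregs it was at 6.10, 3.58 and 0.557 CPM in iHET and 2.48, 4.85 and 29.8 CPM in iKO. The genotypes were apart in both PP experiments and overlapped in the colon. Apoa1 (ENSMUSG00000032083.8, chromosome 9 from 46228580 to 46230466), the main protein of high-density lipoprotein, had 1661 and 383 counts in PP HET, 20 and 16 in PP KO, 2306 and 2284 in CD25- PP iHET and 96 and 501 in CD25- PP iKO libraries. In colonic Tregs it had 0, 4 and 0 counts in iHET and 3, 2 and 0 in iKO. Apoa1 was thus read in every PP library and stayed at 4 counts or fewer in every colonic library.

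The counts of Apoa1 and Fabp2 did not keep a fixed ratio. Apoa1 over Fabp2 was 2.62 and 1.92 in PP HET, 0.4 and 0.533 in PP KO, 1.55 and 2.06 in CD25- PP iHET and 0.662 and 1.83 in CD25- PP iKO libraries, and at most 0.0375 in the colon. Per kb of exon, Apoa1 was the highest gene of the class in PP HET (27.8 CPM per kb) and CD25- PP iHET (68.1 CPM per kb), with Fabp2 next at 14.6 and 49.1 CPM per kb. In the colon the highest was Ckmt1, a mitochondrial creatine kinase, at 9.58 CPM per kb in iHET and 13.8 CPM per kb in iKO.

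Ckmt1 was at 15.0 and 6.96 CPM in PP HET, at 1.60 and 0.256 CPM in PP KO, at 27.7 and 23.9 CPM in CD25- PP iHET and at 5.20 and 9.67 CPM in CD25- PP iKO libraries. In colonic Tregs it was at 22.4, 32.6 and 16.8 CPM in iHET and at 4.18, 18.1 and 80.8 CPM in iKO. Unlike those of Apoa1, the levels of Ckmt1 overlapped between organs, and its colonic genotypes overlapped too. Slc5a1, the sodium-dependent glucose transporter of the brush border, had 460 and 261 counts in PP HET and 1 and 1 in PP KO libraries. It was at 34.2 and 34.4 CPM in CD25- PP iHET, at 1.26 and 7.57 CPM in CD25- PP iKO, at 4.35, 11.2 and 3.72 CPM in colonic iHET and at 2.20, 10.7 and 12.3 CPM in colonic iKO libraries. The control libraries of both PP experiments were all above the JunB-deficient ones.

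Sis was at 6.37 and 2.13 CPM in PP HET, at 0 and 0.146 CPM in PP KO, at 20.5 and 25.8 CPM in CD25- PP iHET and at 1.32 and 6.05 CPM in CD25- PP iKO libraries. It stayed at 0.564 CPM or less in the 6 colonic libraries. Mogat2, which makes diacylglycerol from absorbed monoacylglycerol, was at 5.48 and 2.20 CPM in PP HET, at 0.249 and 0.219 CPM in PP KO, at 18.1 and 11.2 CPM in CD25- PP iHET and at 1.29 and 3.81 CPM in CD25- PP iKO libraries. In the colon it lay between 0 and 2.19 CPM. Both genes were lower in the 6 colonic than in the 2 CD25- PP iHET libraries, but Mogat2 in colonic iKO overlapped CD25- PP iKO, and some colonic levels of both genes exceeded those in PP KO libraries.

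Gpd1, a glycerol phosphate dehydrogenase, was at 5.68 and 2.09 CPM in PP HET, at 0.142 and 0.439 CPM in PP KO, at 18.7 and 15.4 CPM in CD25- PP iHET and at 2.58 and 5.97 CPM in CD25- PP iKO libraries. In colonic Tregs it was at 2.22, 1.27 and 0.712 CPM in iHET and at 1.15, 2.76 and 2.91 CPM in iKO. Maoa, a monoamine oxidase, was at 4.23 and 3.25 CPM in PP HET, at 0.392 and 0.110 CPM in PP KO, at 14.4 and 8.64 CPM in CD25- PP iHET and at 1.54 and 2.17 CPM in CD25- PP iKO libraries. In the colon Maoa reached 15.7, 10.7 and 2.26 CPM in iHET and 7.31, 11.4 and 36.9 CPM in iKO, so it was not low there. Fbp2 was at 3.20 and 1.87 CPM in PP HET, at 0.107 and 0.110 CPM in PP KO, at 5.92 and 3.36 CPM in CD25- PP iHET, at 0.504 and 0.419 CPM in CD25- PP iKO, at 3.47, 7.74 and 1.67 CPM in colonic iHET and at 2.32, 5.23 and 17.7 CPM in colonic iKO libraries. For these 3 genes the genotypes were apart in both PP experiments and overlapped in the colon.

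The other 6 genes of the class are the brush border enzymes Mgam and Enpep, the lipoprotein Apob, the transporter Slc2a2, the phosphatase G6pc and Tm6sf2. Of these, Slc2a2 and G6pc did not pass the filter in PP Tregs and the other 4 had log2 fold changes between -2.68 and -5.19 there. In CD25- PP Tregs all 6 were lower in both iKO than in both iHET libraries, and G6pc, at 3.10 and 1.74 CPM in iHET and 0 in both iKO libraries, was at least 23.2-fold lower. Across the 15 genes, PP HET replicate 1 was the highest PP library of the constitutive line for 15, and CD25- PP iKO replicate 1 was the lowest of its experiment for 14.

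The 3 absorptive genes with no assigned segment behaved unalike in the colon. Aoc1, which degrades histamine, was at 7.03 and 3.86 CPM in PP HET, at 1.35 and 1.72 CPM in PP KO, at 8.84 and 12.7 CPM in CD25- PP iHET and at 4.25 and 4.87 CPM in CD25- PP iKO libraries, and lay between 1.08 and 5.06 CPM in the colon. Clca4b was at 8.59 and 2.71 CPM in PP HET, at 0 and 0.0731 CPM in PP KO, at 12.0 and 14.4 CPM in CD25- PP iHET and at 1.70 and 0.913 CPM in CD25- PP iKO libraries. In the colon Clca4b was at 11.2 CPM in iHET replicate 2 and at 0.602 CPM or less in the other 5 libraries. Ugt2b34, a glucuronosyltransferase, was at 2.91 and 1.19 CPM in PP HET and at 0 in both PP KO libraries, at least 18.9-fold lower. It was at 14.5 and 5.85 CPM in CD25- PP iHET, at 1.01 and 2.21 CPM in CD25- PP iKO, at 12.2, 12.5 and 3.16 CPM in colonic iHET and at 6.54, 11.6 and 26 CPM in colonic iKO libraries.

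Of the colonocyte genes, Car1 (ENSMUSG00000027556.15, chromosome 3 from 14766216 to 14808368), a carbonic anhydrase, had 10398, 6933 and 2609 counts in colonic iHET and 5764, 6025 and 44360 in colonic iKO libraries. In the 8 PP libraries it had 0 or 1 count. The water channel Aqp8 had 192, 0 and 384 counts in colonic iHET and 16, 0 and 32 in colonic iKO libraries, and at most 13 counts in a PP library. Car1 was thus read in every colonic library, while Aqp8 was at 0 in 1 library of each genotype. Lypd8, which keeps bacteria away from the colonic surface, was at 89.9, 124 and 275 CPM in colonic iHET and at 45.8, 61.4 and 282 CPM in colonic iKO libraries. It was also read in PP libraries, at 12.5 and 12.1 CPM in HET against 0 and 0.0731 CPM in KO, and at 38.4 and 9.13 CPM in CD25- PP iHET and 10.02 and 35.7 CPM in CD25- PP iKO. Lypd8 was thus read in both organs but was higher in each colonic library than in any PP library, as was Car1, while the levels of Aqp8 overlapped between the organs.

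The genes of epithelial defence were highest in 1 colonic library, iHET replicate 2, for 3 of 3. Dmbt1, a mucosal scavenger receptor protein, was at 230, 875 and 75.1 CPM in colonic iHET and at 51.3, 298 and 463 CPM in colonic iKO libraries. Reg3g, an antibacterial lectin, was at 0.674, 256 and 0 CPM in colonic iHET and at 0, 21.8 and 2.88 CPM in colonic iKO libraries. Pigr, which carries IgA across the epithelium, was at 57.3, 141 and 27.96 CPM in colonic iHET and at 16.2, 66.4 and 72.4 CPM in colonic iKO libraries. Reg3g thus varied far more between colonic libraries of 1 genotype than Pigr did.

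In PP Tregs, Pigr was at 25.4 and 12.5 CPM in HET against 0.320 and 0.512 CPM in KO libraries, and Reg3g was at 10.5 and 6.64 CPM in HET against 0.0356 and 0 CPM in KO libraries. Dmbt1 was at 10.2 and 9.05 CPM in HET against 0 in both KO libraries, at least 89.1-fold lower. Among CD25- PP Tregs, Pigr was at 94.0 and 50.6 CPM in iHET and at 21.7 and 8.14 CPM in iKO libraries. There Dmbt1 was at 30.7 and 0.528 CPM in iHET and at 7.06 and 10.7 CPM in iKO, and Reg3g at 10.8 and 11.1 CPM in iHET and at 26.4 and 5.37 CPM in iKO, so Pigr alone of the 3 did not overlap.

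The goblet cell genes among the secretory genes were high in the same few libraries. Zg16, a lectin of goblet cell granules, was at 56.9 and 6.74 CPM in PP HET, at 0 and 0.0366 CPM in PP KO, at 80.2 and 0.528 CPM in CD25- PP iHET and at 0.252 and 0.304 CPM in CD25- PP iKO libraries. Fcgbp, a component of mucus, was at 41.5 and 10.8 CPM in PP HET, at 0.0712 and 0.183 CPM in PP KO, at 160 and 1.77 CPM in CD25- PP iHET and at 1.80 and 0.228 CPM in CD25- PP iKO libraries. The gel-forming mucin Muc2 was at 11.8 and 0.377 CPM in CD25- PP iHET and at 0.473 and 0.381 CPM in CD25- PP iKO libraries. In CD25- PP Tregs these goblet cell genes were thus high in 1 library, iHET replicate 1, and the second iHET library was near the level of the iKO libraries.

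In colonic Tregs, Zg16 was at 1.85, 0.451 and 41.1 CPM in iHET and at 0.496, 72.5 and 97.8 CPM in iKO. Fcgbp was at 0.843, 1.10 and 20.4 CPM in iHET and at 0, 37.4 and 75.1 CPM in iKO, and Muc2 at 3.44, 0.113 and 10.3 CPM in iHET and at 0.0930, 31.6 and 17.5 CPM in iKO. The same 3 libraries, iHET replicate 3 and iKO replicates 2 and 3, were the highest for each of the 3 genes. In PP Tregs, Muc2 was at 2.44 and 1.70 CPM in HET against 0 and 0.110 CPM in KO libraries. Tff3 and Agr2, which goblet cells also express, followed the same order in CD25- PP Tregs, with 25.8 and 19.1 CPM in iHET replicate 1 and at most 1.83 CPM in the other 3 libraries.

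Lyz1 and Chga did not follow the goblet cell genes. Lyz1 (ENSMUSG00000069515.6, chromosome 10 from 117287797 to 117292868), the lysozyme of Paneth cells, was at 23.97 and 24.9 CPM in PP HET and at 20.4 and 20.2 CPM in PP KO libraries. Among CD25- PP Tregs it was at 1.57 and 8.64 CPM in iHET and at 3.497 and 0.571 CPM in iKO, and in colonic Tregs at 5.36, 0.507 and 1.33 CPM in iHET and at 15.7, 0.983 and 0.219 CPM in iKO. Lyz2, the near-identical lysozyme of myeloid cells, was at between 77.7 and 115 CPM in the constitutive line, and since reads that map to both genes were not counted, the level of Lyz1 is uncertain. Chga, of enteroendocrine cells, was at 11.5 CPM in PP HET replicate 1 and at 0.108 CPM or less in the other 3 libraries of that line, and between 4.28 and 11.2 CPM in all 10 libraries of the inducible line.

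The receptor Lgr5 (ENSMUSG00000020140.15, chromosome 10 from 115450311 to 115587780) had 424, 532 and 302 counts in colonic iHET, 316, 402 and 339 in colonic iKO, 326 and 313 in CD25- PP iHET and 438 and 282 in CD25- PP iKO libraries. In the constitutive line it had 6 and 7 counts in HET against 0 and 17 in KO libraries. Its highest level was 1.60 times its lowest over the 10 libraries of the inducible line, the smallest such ratio of the 33 genes with over 3 counts in each of them. The other stem cell gene, Olfm4, did not go with it, and had at most 32 counts in any library and 0 in 5 of the 6 colonic libraries. Of the 33 genes, Chga (2.62-fold) was the only other with a ratio under 3, and 27 had a ratio over 10. Such evenness was not particular to Lgr5, since among the companion genes the ratio was 1.42 for Espn, 1.525 for Rgmb and 1.66 for the brush border protease Mep1a. The split between the lines was not particular to it either. Mep1a had 1498 to 3056 counts in the inducible line and at most 18 in the constitutive line. The stem cell gene Smoc2 had 195 to 437 against at most 29, and the myeloid gene Adgre1 had 1327 to 1868 against at most 57.

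**Figure D3:**
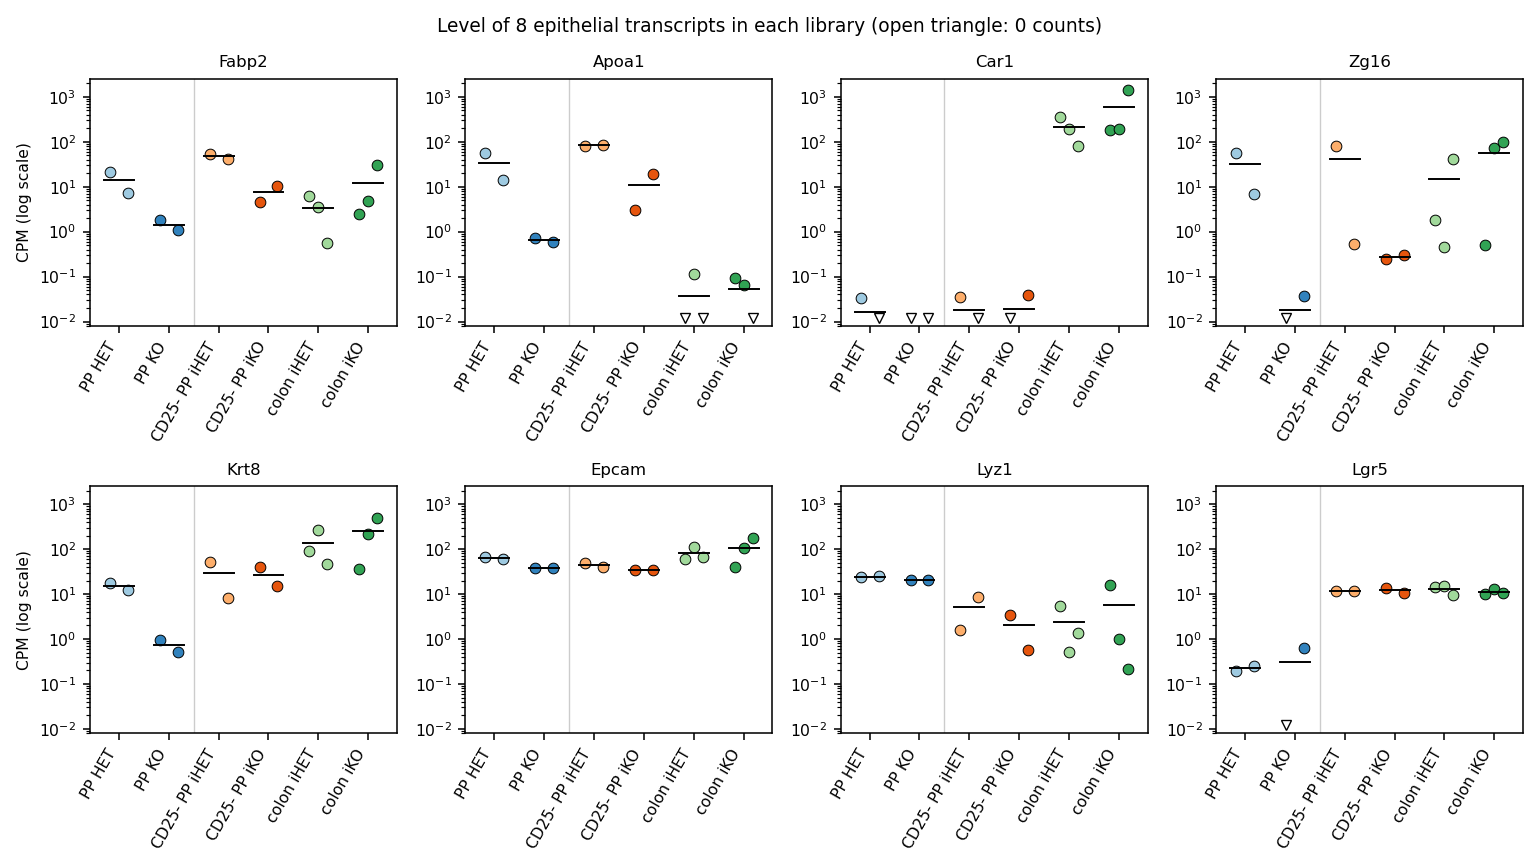
Level in CPM (log axis) of 8 genes in each library, with circles for libraries, lines for group means and open triangles for 0 counts. Car1 is at 80.8 CPM or more in the colonic and at 1 count or less in the PP libraries, Apoa1 shows the opposite, and Lgr5 and Epcam differ least between libraries of the inducible line.

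To ask how the transcripts differed by genotype in PP Tregs, KO and HET libraries were compared with edgeR's quasi-likelihood test across 12224 genes, at a false discovery rate (FDR) of 0.05. Of the 47 genes, 40 passed the filter on low counts (at least 1 CPM in 2 libraries), and the other 7 were Aqp8, Car1, Chga, G6pc, Lgr5, Olfm4 and Slc2a2. Each of the 40 lay lower in both libraries of KO than in those of HET, and 34 were called lower and 0 higher. Over all genes, 2.36% were called lower, 0.99% were called higher, and 25.2% were lower without overlap. Nothing is read from these counts, since 30 of the 40 were under 1 CPM in both KO libraries and passed the filter through the HET group alone. The median log2 fold change was -3.76 for structural, -4.00 for small-intestinal absorptive and -6.18 for secretory genes, or -5.37 for the last with the gene at 0 in KO set to its bound, against 0.003 over all genes. The number called lower was 12 without HET replicate 1, 25 without HET replicate 2, 36 without KO replicate 1 and 34 without KO replicate 2.

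Of the 62 companion genes, 26 passed the filter in PP Tregs and 13 of these were under 1 CPM in both KO libraries. In this test, 14 were called lower and 0 higher in KO, of which 8 were small-intestinal absorptive genes, against 2.36% of all genes called lower. Only 4 of the 14 reached 1 CPM in a KO library (Mttp, Rbp2, Anpep and Lgals4). The other 10, among them Cldn15, Clca1 and Slc51a, passed the filter through the HET group alone and had to differ. Nothing is read from the calls of these 10. The lowest p-value was that of Mttp, which loads lipid onto apolipoprotein B. Mttp was at 22.0 and 13.3 CPM in HET against 3.13 and 2.27 CPM in KO libraries, which is -2.66 on the log2 scale (standard error 0.30, edgeR adjusted p = 0.00528). The structural claudin Cldn15 was at 4.06 and 2.38 CPM in HET against 0 in KO libraries, at least 29.8-fold lower (edgeR adjusted p = 0.00656). Clca1, secreted by goblet cells, was at 67.7 and 12.8 CPM in HET against 0.142 and 0 CPM in KO (edgeR adjusted p = 0.00838), and the steroid and bile acid transporter subunit Slc51a was at 1.62 and 2.20 CPM in HET against 0.0356 and 0 CPM in KO (edgeR adjusted p = 0.0098).

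The retinol binding protein Rbp2, the alkaline phosphatase Alpi, the lectin Itln1 of goblet and Paneth cells, the membrane protein Tspan8 and the galectin Lgals4 were also lower, with edgeR adjusted p between 0.0138 and 0.0205. Of these, Lgals4 remained well read in KO libraries, at 32.4 and 24.7 CPM in HET against 15.5 and 13.3 CPM in KO, or -0.96 as log2 fold change (standard error 0.16). Alpi, Itln1 and Tspan8 were under 1 CPM in both KO libraries and passed the filter through the HET group alone. Nothing is read from their calls. The number of companion genes called was 3 without HET replicate 1, Clca1 and Mttp among them. B cell genes were lower as well. The 8 listed summed to 203 and 227 CPM in HET against 110 and 172 CPM in KO libraries, and all 8 had negative fold changes. Of the 8, 7 were lower without overlap, against 25.2% of all genes, and 0 were called. In edgeR's test 7 had an unadjusted p under 0.05, against 1709 of all 12224 genes. Whether B cell transcripts had a part in the result was not tested.

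**Figure D4:**
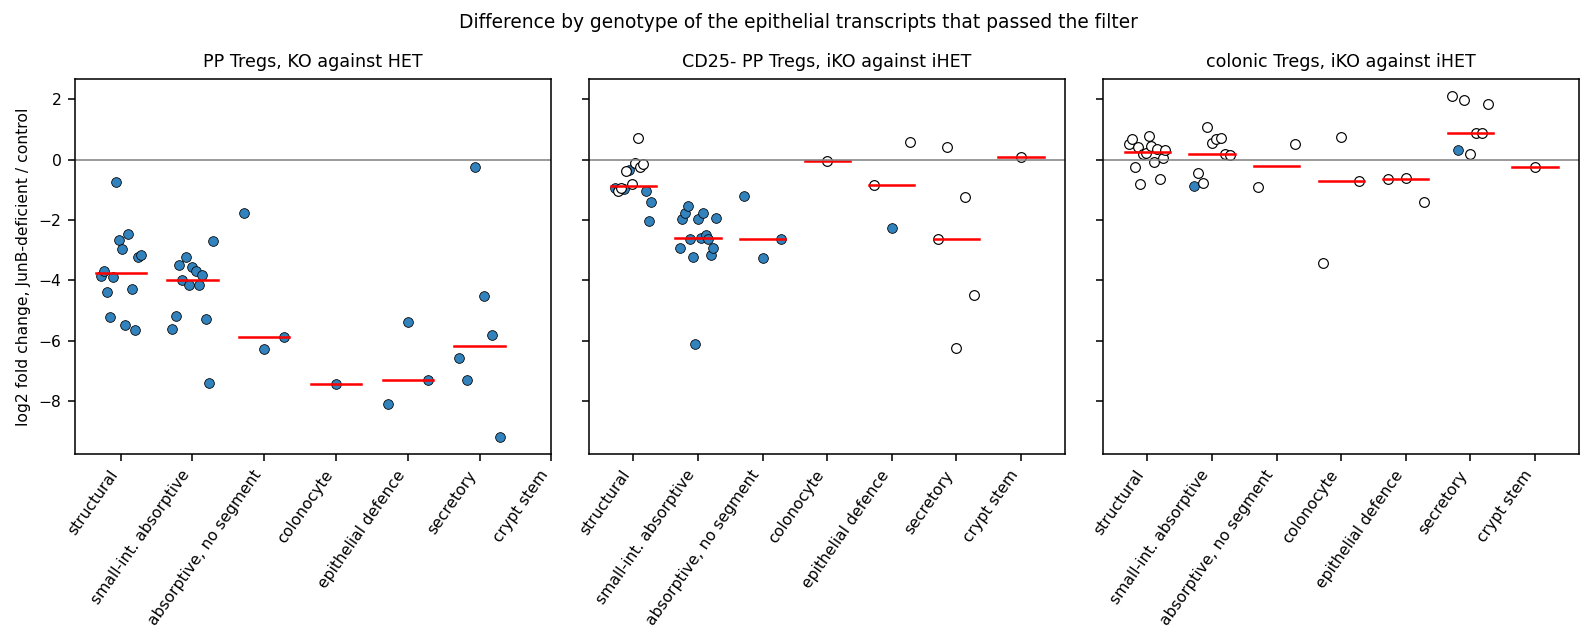
Log2 fold change of JunB-deficient against control libraries for the members of each class that passed the filter, in PP Tregs, CD25- PP Tregs and colonic Tregs. Filled points are genes whose groups do not overlap, open points genes whose groups overlap, and red lines class medians, which are -4.00, -2.60 and 0.19 for small-intestinal absorptive genes.

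In CD25- PP Tregs, 42 of the 47 genes were tested among 17079, and Aqp8, Car1, Muc2, Olfm4 and Zg16 were not. None of the 47 was called at the FDR of 0.05 by edgeR's quasi-likelihood test, as for 0% of all genes, and 24 had an unadjusted p under 0.05, against 3.62% of all genes. Under the exact test of edgeR, which the study used here, 18 were called, and under DESeq2's Wald test 16, all of them lower in iKO. The 15 small-intestinal absorptive genes were all lower in both iKO than in both iHET libraries, with log2 fold changes between -1.54 for Enpep and -3.22 for Fbp2 in the 14 that were read in iKO, G6pc at 0 in iKO, and a median of -2.60, against -0.0023 over all genes. Groups that did not overlap, with iKO lower, made up 6 of 14 structural, 15 of 15 small-intestinal absorptive, 3 of 3 unassigned absorptive, 1 of 3 defence and 0 of 5 secretory genes, against 17.5% of all genes. Several of these genes were picked from this comparison, so nothing is read from these shares. Without iHET replicate 1 the quasi-likelihood test called 5 of the 47, 3 lower and 2 higher in iKO, and without iHET replicate 2 it called Agr2 and Fcgbp, both lower. For the unassigned absorptive genes the median was -2.64, for structural genes -0.87, and Lypd8 had -0.06 as log2 fold change (standard error 0.78).

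The companion genes were not called in this comparison (0 of 42 by edgeR's quasi-likelihood test). Of the 42, 11 had an unadjusted p under 0.05 in that test, against 3.62% of all genes. The exact test called 1, the trehalase gene Treh, and DESeq2 called Treh and Cyp2c55, and both were lower in iKO. Of the 20 small-intestinal absorptive companion genes tested, 19 had a negative fold change, with a median of -1.28. Both iKO libraries were below both iHET libraries for 13 of the 20, against 17.5% of all genes. Over all 14 libraries, the companion genes of highest mean level were Lgals4, Ccl20 and Mep1a. Lgals4 was at 54.5 and 27.2 CPM in iHET and 26.8 and 23.7 CPM in iKO (log2 fold change -0.68, standard error 0.34, edgeR adjusted p = 0.999), and Mep1a at 64.1 and 58.5 CPM in iHET and 59.0 and 57.0 CPM in iKO. Ccl20, a chemokine that follicle-associated epithelium and T cells both express, was at 24.3 and 10.3 CPM in iHET and 21.8 and 28.8 CPM in iKO. The B cell genes, 0 of which were called in the other PP experiment, summed to 97.8 and 104 CPM in iHET and 102 and 130 CPM in iKO.

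In colonic Tregs, 39 of the 47 genes were tested among 16313, with the replicate number as a term for cage, and Apoa1, Clca4b, G6pc, Mogat2, Olfm4, Sis, Slc2a2 and Tm6sf2 were not. None was called by edgeR's quasi-likelihood test, against 0.00613% of all genes, and 2 colonocyte genes, Aqp8 and Lypd8, had an unadjusted p under 0.05, against 3.87% of all genes. Aqp8 was called lower in iKO under edgeR's likelihood ratio test, the test of the study, and under DESeq2, and no other of the 47 was. Without iHET replicate 3, and likewise without iKO replicate 3, the quasi-likelihood test called Reg3g lower. Of the 39, 25 had positive and 14 negative fold changes. Apob was the only one lower without overlap (2.92% of all genes) and Chga the only one higher without overlap (5.66% of all genes). The class medians were 0.26 for structural, 0.19 for small-intestinal absorptive, 0.90 for secretory and -0.65 for defence genes. None of 37 companion genes was called by the quasi-likelihood test, the likelihood ratio test or DESeq2, and 3 had an unadjusted p under 0.05. The 3 companion genes of highest mean level over the 14 libraries, Lgals4, Ccl20 and Mep1a, were at 32.9 to 258 CPM, 65.1 to 124 CPM and 64.4 to 94.6 CPM in the 6 libraries. Stromal genes varied in the same libraries, from 70.2 to 992 CPM summed over 6 genes, in an order unlike that of the epithelial classes, since iKO replicate 1 was highest for stroma and lowest for 11 structural genes. Their part in the result was not tested.

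To ask how the transcripts differed by organ, colonic and CD25- PP libraries of the inducible line were compared within each genotype in 1 fit of 10 libraries and 18626 genes. In iHET, 8 of 15 small-intestinal absorptive genes (Apoa1, Apob, Enpep, G6pc, Gpd1, Mogat2, Sis and Slc2a2) were called lower and Car1 was called higher in the colon, while 2.23% of all genes were called lower and 4.22% higher. In iKO, Apoa1 and Apob were called lower and Car1, Cdx1 and Fbp2 higher, while 1.59% of all genes were called lower and 2.48% higher. Apoa1, G6pc, Sis and Slc2a2 were under 1 CPM in every colonic library, and Car1 was under 1 CPM in every CD25- PP library. These genes passed the filter through 1 organ alone and had to differ. Several of the 47 were also picked from these data, so nothing is read from the calls. Small-intestinal absorptive genes were lower in the colon without overlap for 12 of 15 in iHET (30.4% of all genes) and for 4 of 15 in iKO (26.5% of all genes). Structural genes were higher in the colon without overlap for 6 of 14 in iHET (12.3% of all genes) and for 6 of 14 in iKO (18.3% of all genes). The medians were -3.44 in iHET and -0.54 in iKO for small-intestinal absorptive genes, 1.41 and 2.67 for structural genes, and -1.34 and 4.17 for secretory genes. Without CD25- PP iHET replicate 2, 3 of the 47 were called in iHET (Apoa1, Apob and Sis), and without CD25- PP iKO replicate 2 only Apoa1 was called in iKO.

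**Figure D5:**
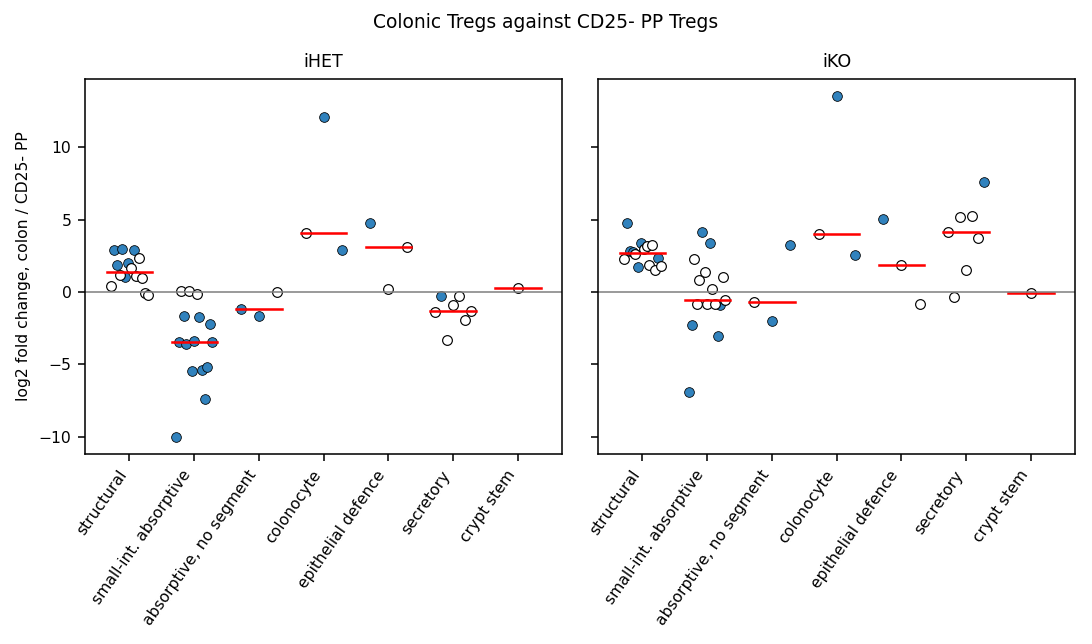
Log2 fold change of colonic against CD25- PP Tregs for each class within iHET and within iKO mice, with filled points where the libraries of the organs do not overlap and red lines at class medians. Small-intestinal absorptive genes lie mostly below 0 in iHET (median -3.44) and on both sides of 0 in iKO (median -0.54), and Car1 is highest in both.

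The companion genes of the small intestine and colon were split in the same comparison. In iHET, 9 were called lower in the colon, all of them small-intestinal absorptive, against 2.23% of all genes. Another 3 were called higher, against 4.22% of all genes. Mttp fell from 108 and 36.4 CPM in CD25- PP to 4.01, 5.07 and 3.81 CPM in colonic libraries, or -3.91 as log2 fold change (standard error 0.52, edgeR adjusted p = 0.00377). Apoa4, a protein of chylomicrons, was at 38.4 and 54.3 CPM in CD25- PP and at 0 in the 3 colonic iHET libraries, at least 499-fold lower (edgeR adjusted p = 0.00435). Fabp1, the liver fatty acid binding protein that proximal enterocytes also express, was at 96.1 and 26.9 CPM in CD25- PP and at 0 in colonic iHET libraries, at least 662-fold lower (edgeR adjusted p = 0.0333). Rbp2, Treh, Npc1l1, Mep1b and Slc6a19 were also lower, with edgeR adjusted p between 0.0103 and 0.0485. Apoa4, Fabp1 and Treh had at most 2 counts in any colonic library of either genotype. They passed the filter through the CD25- PP libraries alone and had to differ, so nothing is read from their calls.

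The 3 genes that rose in the colon were Hsd11b2, Ccl20 and Tnfaip2. Hsd11b2, an enzyme that protects the mineralocorticoid receptor from glucocorticoids, rose by 4.91 on the log2 scale (standard error 1.27, edgeR adjusted p = 0.0449). It had 211, 645 and 120 counts in colonic iHET but 18 and 0 in CD25- PP iHET libraries, so the size of its rise rests on low counts. Ccl20 and Tnfaip2 were listed for follicle-associated epithelium, but T cells express Ccl20 too. Gp2, the remaining gene listed for that epithelium, had at most 6 counts in any library and did not pass the filter. Which cells the Ccl20 and Tnfaip2 transcripts came from was not tested. Ccl20 was at 73.0, 65.1 and 74.9 CPM in colonic and at 24.3 and 10.3 CPM in CD25- PP libraries, or 2.19 as log2 fold change (standard error 0.35, edgeR adjusted p = 0.00842), and Tnfaip2 had one of 3.24 (standard error 0.75, edgeR adjusted p = 0.0321). In iKO, Rbp2 and Apoa4 were lower (edgeR adjusted p = 0.0293 and 0.0187) and Ccl20 and Tnfaip2 higher in the colon (edgeR adjusted p = 0.0158 and 0.024). Rbp2 had 18, 0 and 4 counts and Apoa4 0, 1 and 2 counts in colonic iKO libraries, all under 1 CPM. Both passed the filter through CD25- PP libraries, so nothing is read from the calls of Rbp2 and Apoa4 in iKO. With the replicate number as a block, Fabp1, Npc1l1, Mep1b, Slc6a19, Hsd11b2 and Tnfaip2 were no longer called in iHET, nor Rbp2 and Tnfaip2 in iKO. In place of 12 companion genes, the number called in iHET was 7 without colonic iHET replicate 2, 5 without CD25- PP iHET replicate 1 and 4 without its replicate 2. In place of 4, the number called in iKO was 1 without colonic iKO replicate 2, 2 without its replicate 3, 2 without CD25- PP iKO replicate 1 and 1 without its replicate 2. Stromal genes differed between the organs as well, and summed to between 31.7 and 35.4 CPM in CD25- PP and between 70.2 and 992 CPM in colonic libraries, and their part in the result was not tested.

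The difference between organs of the genotype effect was tested as an interaction. None of the 46 genes tested was called by edgeR's quasi-likelihood test (0% of all genes), and 13 had an unadjusted p under 0.05, against 3.34% of all genes. Without the filter on low counts, the same test called 1 of the 47 with a negative and 25 with a positive value. All 15 small-intestinal absorptive genes had positive values, from 0.81 to 4.55 on the log2 scale in the 14 other than G6pc, with a median of 3.26 over the 15. A positive value means that the iKO to iHET ratio was higher in the colon than in the PP. Apoa1, G6pc, Mogat2, Sis, Slc2a2 and Tm6sf2 did not pass the filter in the colonic genotype fit, so their colonic ratio rests on low counts. Several of the 47 were picked from the CD25- PP comparison, so nothing is read from this shared sign. None of 51 companion genes was called for the interaction by the quasi-likelihood test, the likelihood ratio test or DESeq2, and 4 had an unadjusted p under 0.05 in the first. Their 20 small-intestinal absorptive genes had a median of 1.18, with 17 positive and 3 negative values.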

How the data were processed

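RNA of sorted Tregs was made into low-input SMARTer v4 libraries. Per the labels and the study's methods, the authors trimmed reads with Trim Galore, aligned them with STAR to mm10 with GENCODE annotation without multi-mapping reads, and deposited raw counts per gene from featureCounts at default settings, which do not use strand. Deposited counts were read unchanged, and genes were named by Ensembl ID in GENCODE M21, which held 55394 of 55487 and 53706 of 53801 IDs. Levels are CPM over the library total, and fold changes come from edgeR 4.0.16 (R 4.3.3) with TMM scaling, a prior count of 1 and genes kept at 1 CPM or more in a number of libraries equal to the smallest group. Quasi-likelihood tests were adjusted over all genes tested by Benjamini-Hochberg at an FDR of 0.05. Groups came from the labels, and 4, 4 and 6 libraries entered the genotype fits of PP, CD25- PP and colonic Tregs, the last with replicate number as a term for cage, which the study's methods include. The labels do not say that the number marks the cage. Organ and interaction contrasts used 1 fit of 10 libraries. The scripts were tested on simulated data with 200 changed genes. DESeq2 1.42.0, the edgeR exact and likelihood ratio tests, other scaling, no filter, a prior count of 0.125, a replicate block and leaving out each library were the alternatives.

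The members and gene lists were chosen with earlier results of these data known. Genes given library by library were the 3 of highest mean CPM in each class and a fixed set of metabolic and marker genes, and companion genes were those called, up to the 10 of lowest p, or the 3 of highest mean CPM over the 14 libraries where fewer than 3 were called. Where nothing says that libraries came from separate mice, p-values measure only the spread between these libraries. The floor of 3 counts covers counting error only. Figures were drawn with matplotlib 3.10.9. Values of 1 companion gene are not reported here, though it is in the counts.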

Additional observations from a re-analysis of the deposited data

Results flagged for a closer look

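The fold changes of 2 companion genes had opposite signs in 2 experiments, with every JunB-deficient library on one side of every control library in each. Espn, an actin bundling protein, had a log2 fold change of 0.23 in PP Tregs, with both KO above both HET libraries, and of -0.16 in CD25- PP Tregs, with both iKO libraries below both iHET libraries. Mttp had a log2 fold change of -2.66 in PP Tregs, where both KO libraries were lower, and of 0.41 in colonic Tregs, where the 3 iKO libraries were higher. The experiments are in separate tables, so the difference between them was not tested for either gene. Genes whose groups do not overlap are common here, at 25.2% of all genes lower in PP, 17.5% lower in CD25- PP and 5.66% higher in colonic Tregs, so nothing particular is read from these 2 genes.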

How the results depend on the processing

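Without the filter on low counts, more companion genes were called in every comparison except colonic genotype: 36 in PP Tregs in place of 14, 16 in CD25- PP Tregs in place of 0, 31 for organ in iHET in place of 12, 30 for organ in iKO in place of 4, and 12 for the interaction in place of 0. Over all genes, the counts without the filter were 1305 in place of 409 in PP Tregs, 232 in place of 0 in CD25- PP Tregs, 24 in place of 1 in colonic Tregs, 2848 in place of 1201 for organ in iHET, 2348 in place of 758 for organ in iKO and 282 in place of 0 for the interaction. Of the 47 members, the counts without the filter were 42 lower in PP Tregs, 29 lower in CD25- PP Tregs, 1 lower in colonic Tregs, 18 lower and 16 higher for organ in iHET, 5 and 30 for organ in iKO, and 1 and 25 for the interaction. DESeq2 called 2 companion genes in CD25- PP Tregs and 15 for organ in iKO, the exact test called 1 in CD25- PP Tregs, and 16 were called for organ in iKO by the likelihood ratio test. Over all genes, DESeq2 called 696 in PP, 35 in CD25- PP and 50 in colonic Tregs, 2504 and 2233 for organ in iHET and iKO, and 2 for the interaction. The exact test called 689 genes in PP and 43 in CD25- PP Tregs. With the likelihood ratio test the counts were 25 in colonic Tregs, 1988 and 1622 for organ in iHET and iKO, and 2 for the interaction. In 1 fit of the 10 libraries, 1 gene was called for genotype in CD25- PP Tregs. With the replicate number as a block, 18 companion genes were called in PP, 0 in CD25- PP Tregs, 6 for organ in iHET and 3 for organ in iKO, over all genes 1015 in PP Tregs and 430 for organ in iKO, and without the block 0 companion genes were called in colonic Tregs. In colonic Tregs, libraries of the same number correlated at 0.0623, 0.293 and -0.0884. Those of different number correlated at between -0.272 and 0.181, so pairing by number was not shown. The paper reports that colonic samples of co-housed mice clustered together. The same-number values were 0.098 in PP and 0.101 in CD25- PP Tregs. With 2 libraries per group, different numbers must give these values with opposite sign, so they cannot show whether libraries were paired. Leaving out 1 library gave 3 to 13 companion genes in PP Tregs, 0 to 0 in CD25- PP and colonic Tregs and the interaction, 4 to 12 for organ in iHET and 1 to 6 in iKO. Over all genes it gave 86 to 406, 0 to 73, 0 to 3, 141 to 1691, 79 to 1075 and 0 to 0 in the order PP, CD25- PP, colonic, organ in iHET, organ in iKO and interaction. The cause of these changes was not tested. DESeq2 size factors changed the sign of 0 members, and the DESeq2 test changed that of 1, Aqp8 in the interaction. Counts of 3 or fewer in every library of a group, as for 17 of the 47 genes in PP KO, limit the size of fold changes that can be read there.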
